A study of Rattus norvegicus with 8 samples.

Results

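The energy balance genes of the arcuate nucleus were examined in the hypothalamus of male F344 rats (F344N on the labels) 24 hrs after retinoic acid (RA) was injected into the third ventricle. RA is the acid form of vitamin A and acts through nuclear receptors that bind DNA. The 10 genes were *Pomc*, *Agrp*, *Npy*, *Cartpt*, *Lepr*, *Mc3r*, *Mc4r*, *Ghsr*, *Insr* and *Npy1r*, each represented by its brightest probe, out of 15159 named genes on the array. All 10 were on the array. The rats had been kept in short days, and 4 received 5 µl of all-*trans* RA and 4 received vehicle. The labels give RA at 1e-05 M and the vehicle as saline, whereas the methods of the study give 1e-04 M, in saline with DMSO, for the array experiment. Age was not given. Every rat carried a cannula in the third ventricle. The tissue was a block of hypothalamus that included the arcuate nucleus and other nuclei, so fewer cells of a type and less RNA per cell cannot be told apart.

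RA and vehicle RNA were labelled with different dyes and hybridised together, so that each of the 8 arrays gave a ratio of RA over vehicle. On arrays 1, 3, 6 and 8 RA carried Cy5, and on arrays 2, 4, 5 and 7 it carried Cy3. Neither the labels nor the methods say which arrays shared RNA, and 8 arrays of 4 rats per treatment were not 8 independent replicates. Across 10042 named genes, each of the 8 arrays correlated best, among arrays of the opposite dye order, with 1 partner, and these couples were arrays 1 and 2 (Pearson r = 0.352), 3 and 4 (0.394), 6 and 7 (0.803) and 5 and 8 (0.797). The other 12 couples of opposite dye order had r of 0.054 to 0.523. These correlations are across genes, which are not independent replicates, and are a hint from the data on the sharing of RNA, not a record of it. If it holds, arrays 5 and 8 measured 1 RA rat and 1 vehicle rat in both dye orders. Between 57.4% and 74.6% of probes were well above background for RA and 61.2% to 74.5% for vehicle.

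Neurons of the arcuate nucleus read hormones from the blood and set appetite and energy use. *Pomc* encodes the precursor of α-MSH, which lowers food intake through the melanocortin receptors *Mc3r* and *Mc4r*, and neurons of the same kind often make the peptide of *Cartpt*. *Agrp* encodes an antagonist of these receptors, and *Npy* a peptide made by the same neurons as *Agrp* that raises food intake, in part through *Npy1r*. *Lepr*, *Insr* and *Ghsr* encode the receptors of leptin, insulin and ghrelin.

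The start regions of the 3 peptide genes with the lowest ratios are shown because RA receptors bind DNA at repeats of a short half-site. Each sequence is the RefSeq window of 300 bases (250 before the transcription start and 50 after) on the GRCr8 build, read along the strand of the gene. All 10 genes had a window. Capitals mark the half-site AGGTCA (searched on both strands) and the TATA sequence TATAAA (searched on the strand of the gene), which share no base here.
Pomc, chr6:32659103-32659402, + strand: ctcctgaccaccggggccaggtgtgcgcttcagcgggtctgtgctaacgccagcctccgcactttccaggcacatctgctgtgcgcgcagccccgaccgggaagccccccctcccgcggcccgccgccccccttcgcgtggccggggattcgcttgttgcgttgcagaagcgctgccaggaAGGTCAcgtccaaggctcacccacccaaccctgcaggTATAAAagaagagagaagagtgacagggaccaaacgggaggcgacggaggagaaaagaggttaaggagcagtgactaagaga
Agrp, chr19:50359448-50359747, - strand: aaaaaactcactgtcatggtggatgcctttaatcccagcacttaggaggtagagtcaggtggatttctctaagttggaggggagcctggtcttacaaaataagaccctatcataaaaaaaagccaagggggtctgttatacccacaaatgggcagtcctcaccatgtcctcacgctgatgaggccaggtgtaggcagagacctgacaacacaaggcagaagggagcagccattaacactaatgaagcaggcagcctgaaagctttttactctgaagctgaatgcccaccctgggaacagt
Cartpt, chr2:32991186-32991485, - strand: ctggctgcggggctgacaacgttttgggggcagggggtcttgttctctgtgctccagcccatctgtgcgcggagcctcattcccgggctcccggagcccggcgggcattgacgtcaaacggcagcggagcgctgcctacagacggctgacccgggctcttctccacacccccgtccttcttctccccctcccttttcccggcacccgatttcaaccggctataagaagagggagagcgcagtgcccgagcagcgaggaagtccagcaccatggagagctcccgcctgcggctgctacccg
The *Pomc* window held 1 half-site, which began 69 bases before the start, and 1 TATAAA, which began 32 bases before it. The *Agrp* and *Cartpt* windows held neither. Of the 10 genes, *Pomc* and *Lepr* held a half-site, and 16.2% of 33469 windows did. TATAAA was in 8.8% of the windows and in 1 of the 10 genes. A match of these letters is a description of the window, not a binding site.

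*Cartpt* was lower after RA, and it was the 1 gene of the 10 that passed the threshold of the study's methods (an unadjusted p under 0.01). *Pomc* and *Agrp* were 2.14-fold and 2.11-fold lower in RA than in vehicle on arrays 5 and 8, averaged 0.08 and -0.02 (log2 ratio) on the other 6 arrays, and did not pass. The remaining 7 genes gave mean log2 ratios of -0.11 to 0.03 and none passed. In all, 8 of the 10 means were below 0, with a median of -0.07, while 52.4% of all named genes were below 0, with a median of -0.0047. At an adjusted p under 0.05 none of the 10 was called. Across all 30367 probes limma gave no adjusted p under 0.05 (the lowest was 0.222), 3291 unadjusted p under 0.05, and 988 probes, or 3.25%, with an unadjusted p under 0.01. Of all probes, 2.61% were called higher after RA and 0.645% lower.

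*Cartpt* gave log2 ratios of RA over vehicle of -0.47, -0.15, -0.40 and -0.64 on arrays 1, 3, 6 and 8, where RA was in Cy5. With RA in Cy3 the ratios were -0.68, 0.00, -0.59 and -0.46 on arrays 2, 4, 5 and 7. *Cartpt*, read by 1 probe with 10 spots per array, was thus below vehicle on 7 of 8 arrays, in both dye orders, and level with it on array 4. In the best correlated couples its means were -0.57 (arrays 1 and 2), -0.07 (3 and 4), -0.43 (6 and 7) and -0.61 (5 and 8). The mean log2 fold change was -0.42 (SE 0.09), a 1.34-fold lower level (limma, adjusted p = 0.254). Since it was unknown which arrays shared RNA, the largest p over all 24 ways of pairing the dye orders was kept, and the unadjusted p was under 0.01 in all 24. The exact two-sided sign-flip test of 4 pair means gave p = 0.125, the smallest that 4 pairs allow. The mean was -0.61 on arrays 5 and 8 and -0.36 on the other 6, and *Cartpt* was still called without arrays 5 and 8. The slide held its arrays in 2 rows, and on the 4 arrays of row 1 alone the log2 fold change was -0.32 and not called, and on row 2 alone, arrays 5 to 8, it was -0.52 and called. Without arrays 1 and 2, or 1 and 5, it was -0.37 and -0.39, and the call was lost.

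*Pomc* gave log2 ratios of -0.04, 0.27, 0.06 and -1.08 on arrays 1, 3, 6 and 8, with RA in Cy5. On arrays 2, 4, 5 and 7, with RA in Cy3, they were -0.20, 0.33, -1.11 and 0.09. Arrays 5 and 8, of opposite dye order, stood far below the other 6, of which 4 were above 0. The mean over 8 arrays was -0.21 (SE 0.20, limma, adjusted p = 0.794). On arrays 5 and 8 *Pomc* was 2.14-fold lower in RA than in vehicle, a mean log2 ratio of -1.10, whereas the mean of the other 6 arrays was 0.08. Row 1 of the slide alone gave 0.09 and row 2 alone -0.51, and neither was called.

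*Agrp* gave log2 ratios of 0.03, 0.05, -0.03 and -1.04 on arrays 1, 3, 6 and 8, and of -0.01, -0.07, -1.11 and -0.09 on arrays 2, 4, 5 and 7. The other 6 arrays lay within -0.09 and 0.05, so that *Agrp* was nearly level with vehicle on each of them and far under it on arrays 5 and 8. The mean over 8 arrays was -0.29 (SE 0.18, limma, adjusted p = 0.639). Without arrays 5 and 8 the mean was -0.02, row 1 of the slide alone gave -8e-04 and row 2 alone -0.57, none of them called. The ratios of *Pomc* and *Agrp* had r = 0.946 over the 8 arrays, on which arrays 5 and 8 stood apart for both genes.

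*Npy*, made by the *Agrp* neurons, gave log2 ratios of 0.41, 0.29, 0.13 and -0.26 on arrays 1, 3, 6 and 8, and of -0.01, -0.09, -0.58 and -0.11 on arrays 2, 4, 5 and 7. It was lowest on arrays 5 and 8, and the dye orders differed on this brightest probe. With RA in Cy5 the mean was 0.14 (SD 0.29, n = 4) and with RA in Cy3 -0.20 (SD 0.26, n = 4). Over all 8 arrays the mean was -0.03 (SE 0.10, limma, adjusted p = 0.959). A second, dimmer *Npy* probe was at -0.49 and -0.65 for arrays 5 and 8, and ranged from -0.19 to 0.21 elsewhere. It gave 0.13, -0.14, -0.19 and -0.65 with RA in Cy5 (arrays 1, 3, 6 and 8). With RA in Cy3 it gave 0.21, 0.02, -0.49 and 0.21 (arrays 2, 4, 5 and 7). The higher ratios with RA in Cy5 were thus not seen in this second probe.

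**Figure D1:**
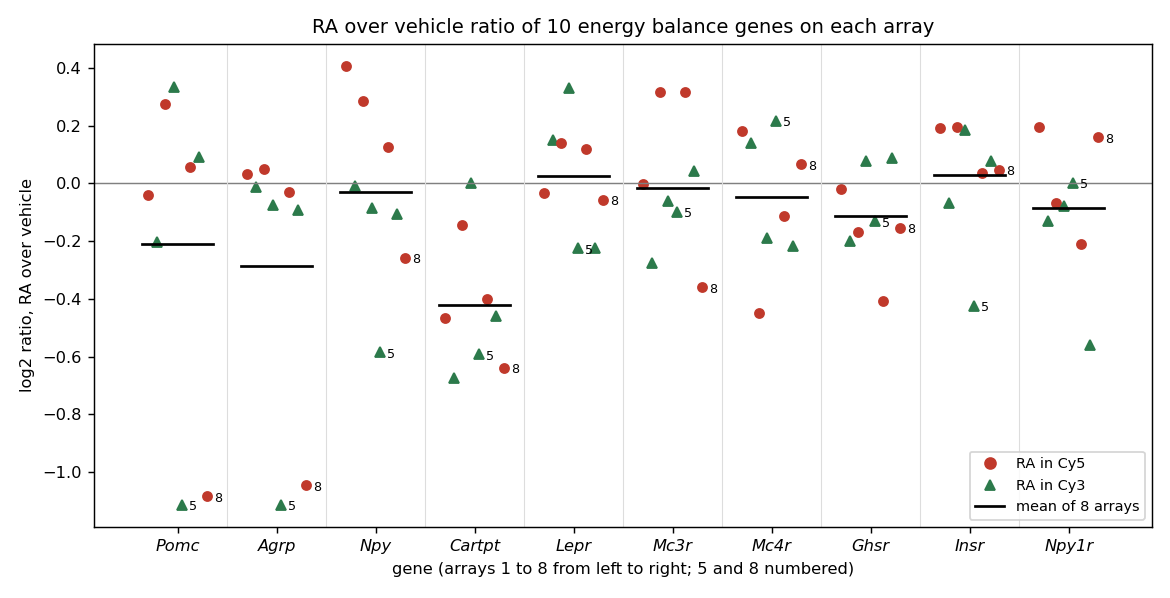
Log2 ratio of RA over vehicle (vertical axis) of the 10 genes (horizontal axis) on each array. Circles are arrays with RA in Cy5, triangles arrays with RA in Cy3, bars the mean of the 8 arrays, and arrays 5 and 8 are numbered. *Pomc* and *Agrp* were near -1.1 on arrays 5 and 8 and between -0.20 and 0.33 on the other arrays, whereas *Cartpt* was below 0 on 7 of 8 arrays.

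Among the receptor genes none was called. *Mc4r* ranged from -0.45 to 0.22 over the 8 arrays (mean log2 fold change -0.05, SE 0.09, limma, adjusted p = 0.918) and *Mc3r* from -0.36 to 0.32 (mean -0.01, SE 0.08, adjusted p = 0.976 in limma). *Npy1r* ranged from -0.56 to 0.19, with its lowest value on array 7 (mean -0.09, SE 0.08, limma, adjusted p = 0.788). *Insr* ranged from -0.42 on array 5 to 0.20 (mean 0.03, SE 0.07, limma, adjusted p = 0.933). Each of these 4 genes had arrays on both sides of 0. *Ghsr* ranged from -0.41 to 0.09 and was below 0 on 6 of 8 arrays (mean -0.11, SE 0.06, limma, adjusted p = 0.558), but was well above background for RA on 2 arrays and for vehicle on 5. *Lepr* was not well above background for vehicle on any array and was so for RA on 1, and its log2 ratios (mean 0.03) are therefore those of a probe at background and are not read as a difference in level. These near-background probes carry little information on ghrelin and leptin receptor RNA.

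**Figure D2:**
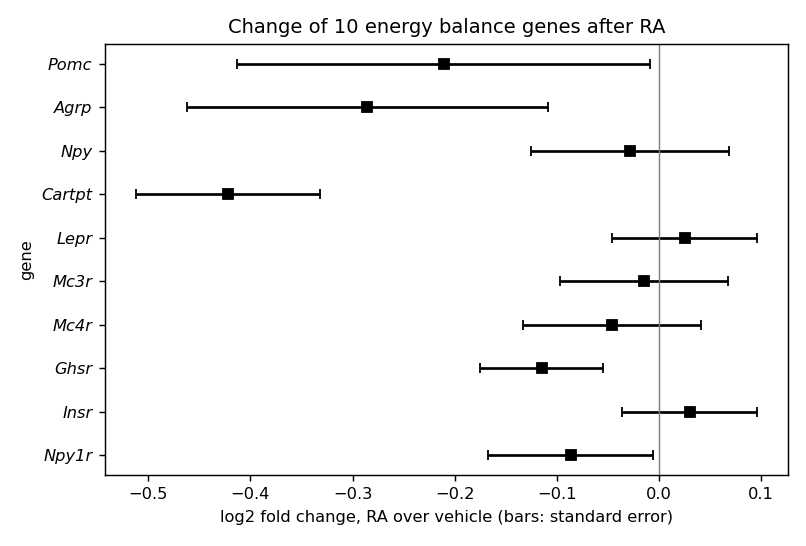
Mean log2 fold change of RA over vehicle (horizontal axis) of each of the 10 genes (vertical axis) over 8 arrays, with bars of 1 standard error from limma on 4 pairs of arrays, at the pairing with the largest p. *Cartpt* was at -0.42 with an SE of 0.09, and *Pomc* and *Agrp* had the widest bars (0.20 and 0.18). *Lepr* and *Ghsr* were near background.

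Whether low ratios were shared was examined array by array. The number of the 10 genes with a ratio below 0 was 5, 8, 4, 5, 8, 5, 6 and 7 on arrays 1 to 8. The median of the 10 was lowest on array 5 (-0.32) and array 8 (-0.21), and between -0.10 and 0.10 on the others, while the median of all named genes was within 0.01 of 0 on each array. On both arrays 5 and 8, 7 of the 10 genes were below 0, as were 27.9% of all named genes. Arrays 2 and 5 also had 7 of the 10 below 0 on both. A ratio under -0.5 on both arrays was seen in 3 of the 10 genes on arrays 5 and 8 (*Pomc*, *Agrp* and *Cartpt*) and in 86 named genes, or 0.567%. No other couple of arrays had more than 1 of the 10 under -0.5 on both. The arrays were singled out by these values, so the counts are a description and were not tested. *Mc4r* and *Npy1r* were above 0 on both arrays, and *Insr* was low on array 5 and at 0.05 on array 8. Thus the low ratios on arrays 5 and 8 were deepest in *Pomc* and *Agrp*, smaller in *Cartpt* and *Npy*, and not shared by all the receptor genes. *Cartpt* was not low on these arrays alone, with -0.68 on array 2, its lowest, -0.47 on array 1 and -0.46 on array 7.

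Each ratio was then taken apart into the levels of its channels, scaled between arrays. In vehicle *Pomc* had log2 intensities of 12.92 on array 5 and 12.80 on array 8, against 11.67 to 12.33 on the other 6. In RA *Pomc* was at 11.81 and 11.71 on arrays 5 and 8, against 11.76 to 12.65. The vehicle channel of arrays 5 and 8 was above that of all the other arrays, and the RA channel was within or just under the range of the others. On average arrays 5 and 8 exceeded the other 6 by 0.87 in vehicle and differed from them by -0.31 in RA, on the log2 scale. For *Agrp* the vehicle levels were 11.27 and 10.78 on arrays 5 and 8, against 10.14 to 10.51. The RA levels of *Agrp* were 10.16 and 9.73, against 10.16 to 10.56. The differences were 0.73 in vehicle and -0.33 in RA. Of the 10 genes, *Pomc* and *Agrp* were the 2 with their 2 highest vehicle levels on arrays 5 and 8, a pattern found in 7.69% of named genes. Among lists taken up below, this vehicle pattern was in 2 of 2 lateral hypothalamus markers, 3 of 11 other arcuate genes and 3 of 7 pituitary genes. It was in 2 of 6 peptide processing genes, 0 of 12 leptin, insulin and ghrelin signalling genes and 0 of 6 neuron markers. With RA levels the 2 lowest arrays were 5 and 8 for *Agrp*, *Mc3r* and *Insr*, and for 2.85% of named genes. On array 5 the vehicle level of *Mc3r* was low as well, at 6.72 against 7.35 to 7.91 on the other 6. The levels of RA and vehicle overlapped over the 8 arrays in each of the 10 genes.

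The split between the channels depended in part on the scaling. Before scaling between arrays, bright probes differed from their mean on the other arrays by a median of -0.65 on array 5 (log2 intensity), -0.52 on array 4 and 0.03 on array 8. On these unscaled levels array 8 still had the highest vehicle level of *Pomc*, at 12.92 against 11.86 to 12.50 on the 6 others, and of *Agrp*, at 10.91 against 10.12 to 10.68. On array 5 the unscaled vehicle levels, 12.21 and 10.54, lay within those ranges. Without scaling the *Pomc* difference between arrays 5 and 8 and the others was 0.47 in vehicle and -0.71 in RA, and that of *Agrp* 0.33 and -0.73, so that the larger part fell in the RA channel. The ratios of RA over vehicle do not depend on this scaling.

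*Cartpt* and *Npy* did not have their 2 highest scaled vehicle levels on arrays 5 and 8. The scaled vehicle level of *Cartpt* was 12.52 on array 5 and 12.88 on array 8, within the 12.32 to 13.10 of the other arrays, and its RA level was 11.93 and 12.24, within 11.87 to 13.01. Without scaling, array 5 lay under the other arrays in both channels of *Cartpt*, at 11.80 against 12.51 to 13.25 in vehicle and 11.21 against 12.05 to 13.11 in RA, leaving out array 8. The scaled RA level of *Npy* was 11.38 on array 5, under the range of 11.70 to 12.16 in arrays 1, 2, 3, 4, 6 and 7, and 11.86 on array 8. Its scaled vehicle level was 11.97 on array 5 and 12.12 on array 8, against 11.445 to 12.11 on those arrays. On average arrays 5 and 8 differed from the other 6 by 0.24 in vehicle and -0.29 in RA for *Npy*.

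**Figure D3:**
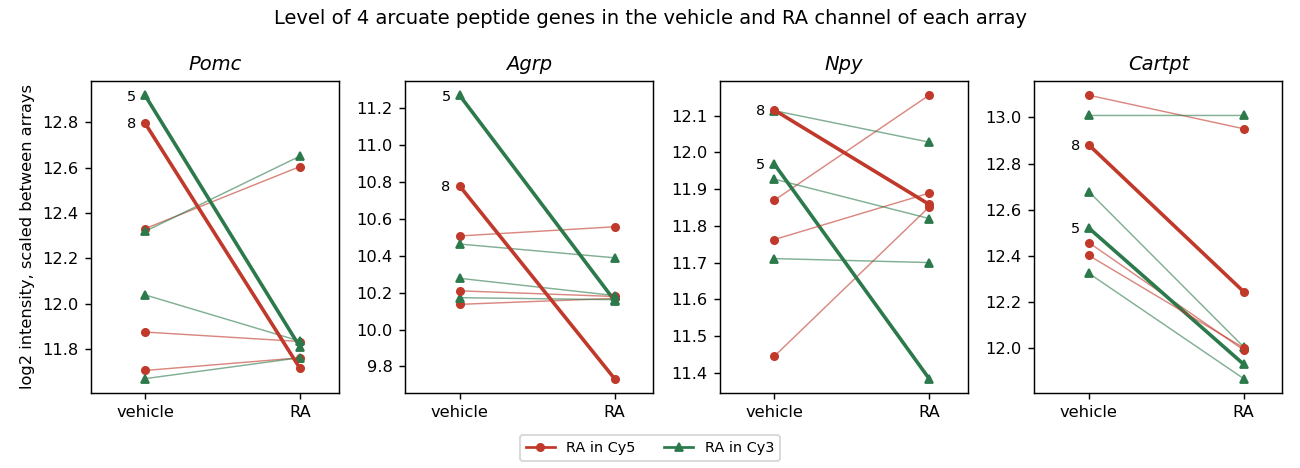
Log2 intensity, scaled between arrays (vertical axis, a scale of its own for each gene), of *Pomc*, *Agrp*, *Npy* and *Cartpt* in the vehicle and RA channel. Each line joins the channels of 1 array, circles and triangles mark the dye of RA, and thick lines are arrays 5 and 8. The *Pomc* lines of arrays 5 and 8 start at 12.92 and 12.80, above the other 6, and end at 11.81 and 11.71, at the low end of the others, whereas most *Cartpt* lines slope down.

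Other genes of the pathway were taken as lists chosen with earlier results of these data known. Of 12 measured genes of leptin, insulin and ghrelin signalling, 3 were higher after RA at an unadjusted p under 0.01, and none was lower (2.61% and 0.645% of all probes), with a list median of 0.04 against -0.0047 for all named genes. *Ptpn1*, which encodes a phosphatase that restrains leptin and insulin signalling, was above 0 on 8 of 8 arrays (0.16 to 0.88, mean log2 fold change 0.56, SE 0.10, limma, adjusted p = 0.222). *Stat3*, the transcription factor activated by the leptin receptor, was also above 0 on all 8 (0.20 to 0.94, mean 0.51, SE 0.10, limma, adjusted p = 0.227). *Jak2*, the kinase bound to the leptin receptor, ranged from 0.02 to 0.47 (mean 0.19, SE 0.05, limma, adjusted p = 0.295). None of the 3 passed an adjusted p under 0.05. *Socs3*, an inhibitor of leptin signalling, had a mean of 0.24 (limma, adjusted p = 0.487), with 0.45 to 0.68 on arrays 6, 7 and 8 and -0.12 to 0.13 on the other 5. *Irs2* and *Leprot* had means of -0.09 and 0.07, with limma adjusted p of 0.684 and 0.718. These genes are expressed in many cell types, and the microglia markers had medians of 0.05 to 0.44 on the 8 arrays. Of these markers *Aif1* and *Csf1r* had means of 0.88 and 0.37, and *Cx3cr1* and *P2ry12* 0.08 and -0.15. The part of microglia in the values of the signalling genes was not tested.

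Of 6 measured receptors that share ligands with the 10 genes, *Npy5r* was called lower (mean log2 fold change -0.20, limma, adjusted p = 0.297). Its ratios were 0.05 to 0.42 on the 4 arrays with RA in Cy5 and -0.66 to -0.54 on the 4 with RA in Cy3, so that its sign followed the dye. *Npy4r* and *Igf1r* had means of 0.10 and -0.02. None of 6 processing enzymes and accessory genes passed, and *Cpe*, *Pam* and *Pcsk1*, which encode enzymes that mature peptide hormones, had means of -0.13, -0.14 and -0.13, with limma adjusted p of 0.406, 0.642 and 0.56. The medians of these lists were -0.02 and -0.08.

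None of 8 transcription factors passed, with a list median of -0.02. *Tbx3*, a factor of arcuate neurons, was below 0 on 8 of 8 arrays (-0.26 to -0.05, mean -0.14, SE 0.04, limma, adjusted p = 0.329). *Nhlh2* had a mean of -0.14 (limma, adjusted p = 0.443). *Nkx2-1*, a factor of the ventral hypothalamus, gave ratios of -0.68 (array 5) and -0.63 (array 8), while the other 6 ranged from 0.02 to 0.19. This was the gene most like *Agrp* across the arrays.

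None of 11 other arcuate peptide and amine genes passed, with a list median of -0.08. *Ghrh*, the growth hormone releasing peptide, was below 0 on 7 of 8 arrays (mean -0.34, SE 0.13, limma, adjusted p = 0.418), with -0.94 and -0.88 for arrays 5 and 8 and -0.31 to 0.03 for the rest. Of the 11, 8 were below 0 on both arrays 5 and 8, and *Ghrh*, *Pdyn* and *Nmu* were under -0.5 on both. The amine genes behaved otherwise: *Th*, the rate-limiting enzyme of dopamine synthesis, was at -1.39, -1.46, -0.89 and -0.78 on arrays 1, 2, 6 and 7 and between -0.04 and 0.32 on the rest. *Slc6a3*, the dopamine transporter, was at -1.47, -1.50, -1.06 and -0.64 on these arrays and at 0.06 to 0.41 on the rest. Their means were -0.49 and -0.46, with limma adjusted p of 0.558 and 0.63.

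Some markers of neighbouring regions stood apart on the same arrays as *Pomc* and *Agrp*. Both lateral hypothalamus markers were under -0.5 on arrays 5 and 8, with *Hcrt*, the orexin precursor, at -1.01 and -1.03 and *Pmch*, the melanin-concentrating hormone precursor, at -1.30 and -1.16. On the other 6 arrays *Hcrt* was between -0.02 and 0.33 and *Pmch* between -0.31 and 0.69. Of 7 measured pituitary genes, 3 of them well above background, 4 were below 0 on both arrays. The median of these 7 was -0.23 and -0.41, with *Cga*, the shared subunit of pituitary glycoprotein hormones, at -1.67 and -1.80 and *Tshb* at -1.15 and -1.52, while *Gh1* and *Prl* were each well above background on at most 1 array in either channel. The other 3 were above 0 on array 8, with *Lhb* at -0.10 and 0.13, *Fshb* at 0.07 and 0.61 and *Pou1f1* at -0.23 and 0.20 on arrays 5 and 8. *Fezf1*, of the ventromedial nucleus, was at -1.02 and -1.22. *Nr5a1*, of the same nucleus, was not well above background on any array. *Vip*, of the suprachiasmatic nucleus, had high ratios on these arrays, at 1.01 and 1.31. So did *Lef1*, of the thalamus, at 0.86 and 0.80 against -0.23 to 0.17 elsewhere. *Rgs16*, the other of 2 measured thalamus genes, was at 0.26 and 0.14 against -0.13 to 0.13, and the medians were 0.56 and 0.47. Scaled vehicle levels of *Vip* were 9.76 and 9.53, under the 10.67 to 11.03 of the others. Its RA levels, 10.77 and 10.84, were within 10.22 to 11.25. *Lef1* had vehicle levels of 9.37 and 9.19 against 9.65 to 10.35. Its RA levels, 10.22 and 9.98, were within 9.47 to 10.39. *Crh*, of the paraventricular nucleus, was at 0.84 and 0.93, and between -0.62 and 0.56 on the other arrays. The rest of its list, as measured, was not high on arrays 5 and 8. *Avp* was at -0.13 and -0.01, *Trh* at -0.09 and -0.10 and *Sim1* at 0.01 and -0.26. The 6 neuron markers had medians of -0.06 and -0.0038 on arrays 5 and 8, with *Snap25* at -0.01 and -0.04. Single neuron markers ranged from -0.13 to 0.05 on array 5 and from -0.25 to 0.24 on array 8. The oligodendrocyte list had medians of -0.32 and -0.36, with 4 of 4 below 0 on both, and medians of -0.22 to 0.04 on the other arrays. The choroid plexus genes were low on arrays 6 and 7 (medians -1.37 and -1.42, with *Ttr* at -4.48 and -5.11) and were at 0.47 and 0.64 on arrays 5 and 8. On arrays 5 and 8 microglia had medians of 0.23 and 0.44, but the markers were split. *Aif1* was at 1.45 and 1.39 and *Csf1r* at 0.48 and 0.70, while *Cx3cr1* was at -0.03 and 0.17 and *P2ry12* at -0.05 and -0.16. On the same arrays the lists of inhibitory and excitatory neurons, the paraventricular and supraoptic nuclei, tanycytes and astrocytes had medians of -0.14 to 0.02. The part of these tissue markers in the ratios of the 10 genes was not tested.

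**Figure D4:**
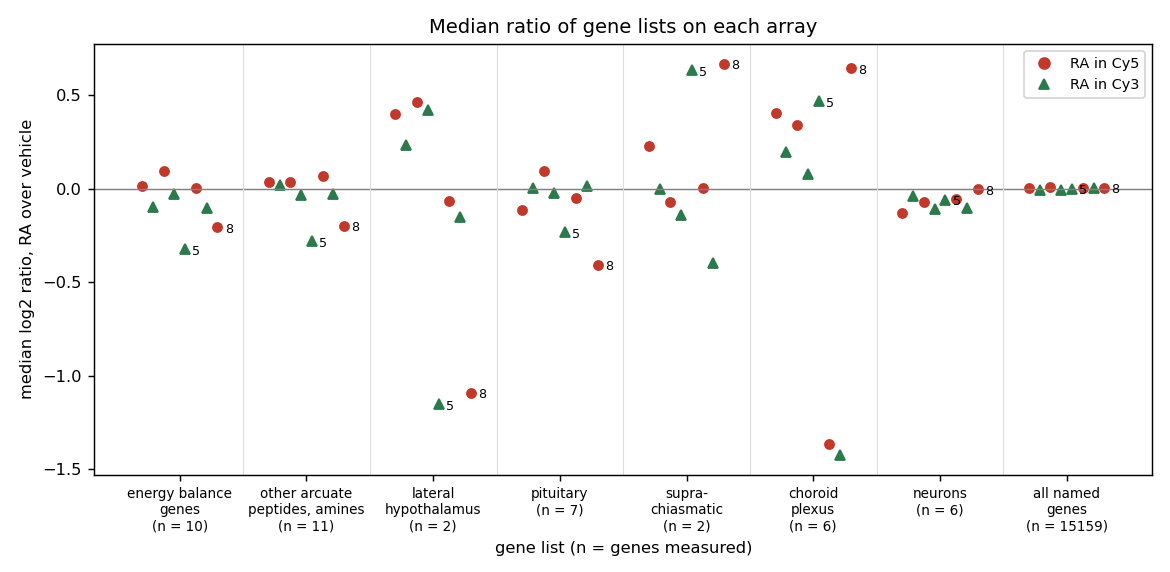
Median log2 ratio of RA over vehicle (vertical axis) of gene lists on each array (horizontal axis, with the number of genes measured). Circles are arrays with RA in Cy5 and triangles arrays with RA in Cy3. On arrays 5 and 8, which are numbered, the energy balance genes were at -0.32 and -0.21 and the lateral hypothalamus genes at -1.15 and -1.09, while all named genes were within 0.01 of 0.

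Among 10034 named genes above background, those with the ratio pattern most like each low gene over the 8 arrays were taken by Pearson r. For *Pomc* they were *Ptpro* (r = 0.997), *Cga* (0.991), *Bgn* (0.986), *Col3a1* (0.983) and *Nlrx1* (0.979). For *Agrp* they were *Nkx2-1* (r = 0.993), *Id1* (0.993), *Pdyn* (0.99), *Hcrt* (0.987) and *Tmsb15b2* (0.981). Genes chosen by likeness to *Pomc* and *Agrp* are bound to be low on arrays 5 and 8, and the ratios of *Nlrx1* there were -0.22 and -0.18. For *Cartpt* they were *Bmp6* (r = 0.951), *Crispld2* (0.95), *Cpz* (0.945), *Synpr* (0.937) and *Hbe2* (0.933). For *Npy* the nearest was *Sorcs1* (r = 0.978) and for *Npy1r* *Lrp11* (0.976).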

How the data were processed

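RNA from the hypothalamus was hybridised to 8 two-colour Agilent arrays of 1 slide, RA against vehicle on each. The authors deposited scanner output (Feature Extraction 10.7.3.1), with linear intensity of spots and background and a log10 ratio of Cy5 over Cy3 by Agilent's software, and a table of normalised log2 ratios. Their methods name limma, loess, means over identical probes and a block for dye-swaps.

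The re-analysis used limma 3.58.1 in R 4.3.3. Median intensities were corrected by normexp (offset 50), normalised by loess within arrays and averaged by probe, without control or outlier spots. Each of the 8 arrays had 62976 spots, which gave 30367 probes, of which 18006 were named through RefSeq accessions (GRCr8) as 15159 genes. After dropped spots, 20 probes lacked a value on some array, none of them of the 10 genes. Where a gene had several probes, the brightest by mean log2 intensity stood for it. A probe counted as well above background where at least 0.5 of its spots were marked so. Arrays were averaged in 4 pairs of opposite dye order and tested in limma in all 24 pairings, keeping the largest p, with Benjamini-Hochberg adjustment over all probes. Single-channel levels were scaled by Aquantile and are compared within a probe only. The fit was checked on simulated data. Where arrays share RNA, p-values measure technical spread in part, and the number of arrays limits precision.

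The 10 genes and the lists were chosen with earlier results of these data known. From each pathway list the genes with an unadjusted p under 0.01 are named, and up to 3 others with the largest change among those above background. *Pdyn*, *Nmu*, *Cga*, *Tshb*, *Lhb*, *Fshb*, *Pou1f1*, *Crh*, *Trh*, *Sim1*, *Rgs16*, *Aif1* and *Csf1r* were named after their values were seen. The slide rows, dye orders, background corrections, other ratios, filters and pairings were tried as alternatives. The singling out of arrays 5 and 8, the best correlated pairing and the scalings of levels were chosen after seeing the data.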

Additional observations from a re-analysis of the deposited data

Results flagged for a closer look

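In groups of 4 arrays of 1 dye order, 58 groups of values (the 10 genes, their median and the lists) were examined for an array lying apart from the other 3. Chance flags about 1 in 20 independent groups, or 2.9, and 8 were found, but these groups share arrays and are not independent.

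*Agrp* stood apart on array 8 (-1.04, with the nearest other array at -0.03) and on array 5 (-1.11, nearest -0.09). *Npy* stood apart on array 5 (-0.58, nearest -0.11). The median of the other arcuate peptide and amine genes stood apart on array 8 (-0.20, nearest 0.03) and array 5 (-0.28, nearest -0.03), and that of the pituitary genes on array 5 (-0.23, nearest -0.02). The median of the choroid plexus genes was -1.37 on array 6 (nearest 0.34). The median of leptin, insulin and ghrelin signalling was 0.17 on array 6 (nearest 0.13), a gap of little size.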

How the results depend on the processing

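*Cartpt* was below 0 in all 33 alternatives and kept an unadjusted p under 0.01 in 28 of them, and its log2 fold change ranged from -0.54 to -0.32. It did not pass with plain background subtraction (-0.43), with Agilent's own log ratio (-0.44) or on slide row 1 alone (-0.32), and in these 3 the count of the 10 genes called was 0. Leaving out 1 array of each dye order gave -0.54 to -0.34 for *Cartpt*, with 0 to 1 genes called. The same omission gave -0.38 to 0.0849 for *Pomc* (the latter without arrays 5 and 8), -0.39 to -0.0212 for *Agrp* (the latter also without arrays 5 and 8), -0.10 to 0.10 for *Npy*, -0.0446 to 0.0807 for *Lepr*, -0.0795 to 0.0858 for *Mc3r*, -0.13 to 0.0502 for *Mc4r*, -0.0234 to 0.10 for *Insr* and -0.15 to 0.0131 for *Npy1r*.

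*Agrp* was -8e-04 on slide row 1 alone, and stayed below 0 in all 33 alternatives. Signs of other genes turned. With no background correction *Lepr* was -0.0109 and *Mc3r* 8e-04, and with the deposited normalised values -0.0102 and 0.0011. *Lepr* was -0.13 with plain subtraction, and *Insr* -0.0892 with Agilent's ratio. With RA in Cy5 only, *Npy* was 0.14, *Mc3r* 0.0679 and *Npy1r* 0.0186, and with RA in Cy3 only *Insr* was -0.0574. On row 1 alone *Pomc* was 0.0902 and *Npy* 0.15, and on row 2 alone *Lepr* was -0.10 and *Insr* -0.0658. The cause was not tested. The count of genes below 0 on both arrays 5 and 8 was 5 to 7 of 10 in the alternatives run for it, and 5 of the 8 genes left when only probes above background were kept.

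The count of all probes called, 988, was 237 with plain subtraction, 330 with Agilent's ratio, 2481 with 8 independent arrays, 1693 with pairs as a random block, 3142 at the pairing with most calls, 2161 and 2317 with RA in Cy5 or Cy3 only, 3111 with the row as a block, and 455 to 1111 when leaving out arrays.

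At the pairing of arrays that correlate most, used as a replicate block, limma gave the same p for *Pomc*, *Npy* and *Cartpt* as kept above (this pairing has their largest p), and no call changed. Low signal limits *Lepr* and *Ghsr*.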
